A study of Drosophila melanogaster with 2 samples.

Results

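The genes described here make dopamine and convert it into the pigments and cross-links that darken and harden the insect cuticle. They were chosen by name: ple, Pu, Ddc, e, b, y and t, 7 genes in all. The table used here held 9 probes for 6 of them, each probe annotated with exactly 1 gene symbol, out of 12500 probes measured on both arrays, which included probes of 10584 named genes and probes without a single gene symbol. All 9 probes had a value on both arrays. No probe was annotated to b alone, so b was not analysed here. The set was put together with the log ratios of these arrays already known, so the values of its genes are given as a description, without a test.

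RNA of Drosophila melanogaster larvae was compared on 2 two-colour arrays. Each array held RNA of control larvae from the cross GMR X GFP-NLS, which made green fluorescent protein targeted to the nucleus, and RNA of larvae from the cross GMR X GFP-B52, which carried a fusion of that protein with B52. B52 is a splicing factor of the SR family, and the question was whether more of it alters the expression of other genes. Both crosses shared GMR, which fly geneticists use for an eye-specific promoter, and a transgene under it is expected in a small part of the larva. The labels give no age, and do not say whether animals were pooled, which dissected tissue was used, if any, or whether the arrays carried separate RNA extracts. On replicate 1 the B52 RNA carried Cy5 and the control RNA Cy3, and on replicate 2 the dyes were exchanged. The control RNA of replicate 1 is labelled as cytoplasmic and the other 3 RNAs as polyA.

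In insects the amino acid tyrosine is the source of the cuticle's catechols. The ple enzyme, tyrosine hydroxylase, makes dopa with a pterin cofactor whose synthesis begins with the Pu enzyme, GTP cyclohydrolase, and the Ddc enzyme, dopa decarboxylase, turns dopa into dopamine. Dopamine then feeds dark melanin, for which y is needed, or is joined to beta-alanine, supplied through b, by the e enzyme. The t enzyme splits that product back into dopamine. The same pathway serves the moulting epidermis, dopamine neurons and, through e and t, the recycling of histamine in the visual system.

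Direction and log base of the deposited log ratios are not stated, so every value has 2 readings. The dye reading assumes Cy5 over Cy3 throughout, so replicate 2 is multiplied by -1 to put B52 over control. The channel reading assumes channel 2 over channel 1, which already is B52 over control on either array. A gene with opposite deposited signs on the arrays therefore has 1 sign in the dye reading and averages towards 0 in the channel reading. Values were present for 13919 spots of replicate 1 and 14026 of replicate 2. Precision is limited throughout by having 2 arrays, and the intensities that would show the level of a gene or check the tissue against its markers were not used here.

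The genes of dopamine synthesis had the highest means of the set in the dye reading and means near 0 in the channel reading. The single ple probe, for the rate-limiting enzyme of dopamine synthesis, was deposited with log ratios of 0.752 for replicate 1 and -0.711 for replicate 2. The 2 arrays thus gave nearly equal sizes with opposite signs. Its dye-reading mean was 0.73 ± 0.029 (SD, n = 2 arrays), a 5.39-fold higher level in the B52 larvae on a log10 scale and a 1.66-fold higher one on a log2 scale. The channel-reading mean was 0.0205 ± 1.03, or 1.05-fold and 1.01-fold. Its spread between arrays in the dye reading was below the median of all probes, 0.103, and in the channel reading far above the corresponding median of 0.0947. Both follow from the nearly equal sizes and opposite signs of the deposited values, which were known when ple was chosen, so nothing is read from them.

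Pu, which starts the synthesis of the cofactor that ple needs, had 2 probes with closely similar values. Probe 269 had deposited values of 0.436 and -0.523, and probe 1581 had 0.521 and -0.542, on replicates 1 and 2. Whether the 2 probes carry the same sequence is not stated in the sources used here. Averaged over both probes, Pu had a dye-reading mean of 0.51 ± 0.038 (SD, n = 2 arrays), 3.2-fold on the log10 and 1.42-fold on the log2 scale. The channel reading gave -0.027 ± 0.715, which is 1.06-fold or 1.02-fold.

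Ddc, whose product makes dopamine from dopa, had 3 probes that did not agree in size. Probe 110 had deposited values of 0.496 and -0.341, and probe 7197 had 0.453 and -0.313. Probe 6861 was negative on both arrays, at -0.146 on replicate 1 and -0.258 on replicate 2. On replicate 1 this probe lay below 0 while the other Ddc probes were near 0.5, and on replicate 2 all 3 were below 0. The means of the Ddc probes in the dye reading had an SD of 0.2 between probes, against a median of 0.0793 over the 478 genes with more than 1 probe. Over all 3 probes the dye-reading mean was 0.29 ± 0.026 (SD, n = 2 arrays), 1.93-fold on the log10 and 1.22-fold on the log2 scale. Probes 110 and 7197 alone, a choice made after the values were seen, gave 0.40 ± 0.1. The channel reading put Ddc at -0.018 ± 0.404 over its 3 probes, 1.04-fold or 1.01-fold, and probe 6861 at -0.2 ± 0.079 was the Ddc probe with the same sign on both arrays.

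**Figure D1:**
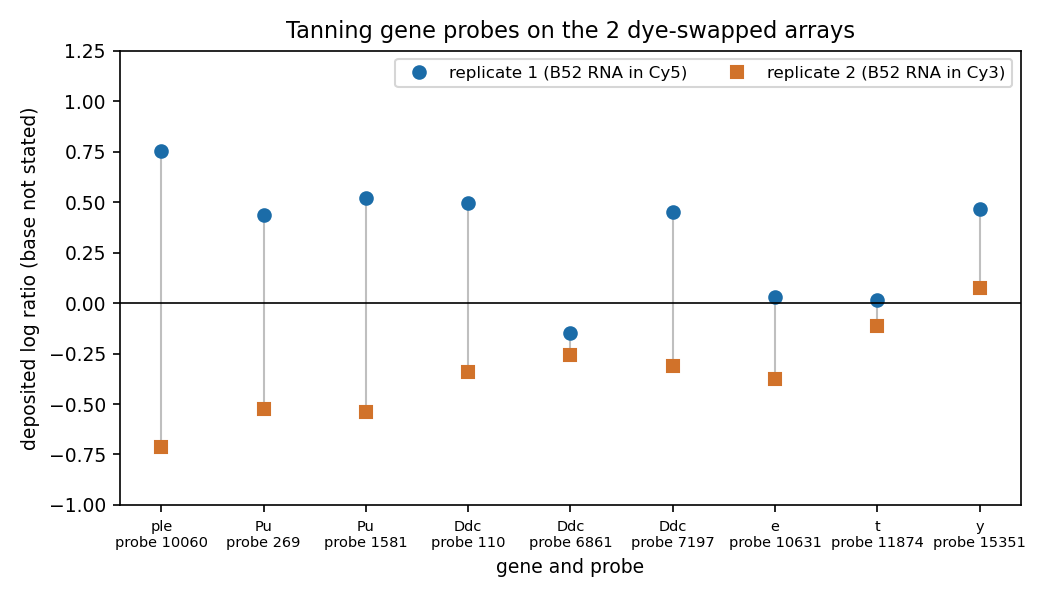
Deposited log ratio (vertical axis, log base not stated) of the 9 probes of 6 tanning genes, with replicate 1 as blue circles, replicate 2 as orange squares and a grey line joining the 2 arrays. The ple, Pu and 2 of the Ddc probes lie well above 0 on replicate 1 and well below 0 on replicate 2, from 0.752 and -0.711 for ple to 0.453 and -0.313 for Ddc probe 7197.

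The genes that use dopamine and beta-alanine had lower dye-reading means than those of dopamine synthesis, each from 1 probe. Their channel-reading means were further from 0 than those of ple, Pu and Ddc. The e probe, for the enzyme that joins dopamine to beta-alanine, had deposited values of 0.031 on replicate 1 and -0.374 on replicate 2. Only replicate 2 was far from 0, and the dye-reading mean was 0.2 ± 0.242 (SD, n = 2 arrays) and the channel-reading mean -0.17 ± 0.286. In either reading the mean was smaller than its SD. The t probe, for the hydrolase that frees dopamine again, had 0.016 and -0.115. Its mean was 0.0655 ± 0.07 in the dye reading, and the channel reading gave -0.0495 ± 0.0926, both also smaller than their SD.

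The y probe behaved unlike the others. The y protein is secreted and is required for dark melanin. Its deposited values were 0.464 on replicate 1 and 0.075 on replicate 2, so y was the only gene of the set with the same deposited sign on both arrays. Its channel-reading mean was 0.27 ± 0.275 (SD, n = 2 arrays), 1.86-fold on the log10 and 1.21-fold on the log2 scale, and its dye-reading mean was 0.19 ± 0.381. Neither mean exceeded its SD.

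Over the 6 measured genes the median log ratio was 0.244 ± 0.019 (SD of the 2 array medians) in the dye reading, with array medians of 0.366 and 0.339. The 0.244 is the median of the gene means, and both array medians lay above it. The SD of the array medians is therefore not a measure of its precision. The median over all 10584 named genes in that reading was -0.0075. For the channel reading the median of the set was -0.0226 ± 0.498, against 0.0085 over all named genes. Both dye-reading values were positive for 5 of the 6 genes, where they were for 21.9% of all named genes, and both negative for 0 of 6, where they were for 25.6%. With the channel reading y was positive on both arrays, 1 of 6 genes where 28.1% of all named genes were, and 0 of 6 were negative on both, where 24.3% were. Since the genes were chosen with these log ratios known, nothing is read from these shares.

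Across all probes no difference passed a test. Limma called 0 of 12500 probes at an adjusted p of 0.05 in the dye reading (0%) and 0 by the channel reading (0%), and so 0 of the 9 probes of the set. At an unadjusted p under 0.05 it had 750 probes in the dye reading, and the channel reading gave 815, and its robust form also called 0, with 732 and 807. A rule of size without a p-value asked for the same sign and a log ratio of at least 0.301, 2-fold if log10, on each array. Under the dye reading 5 of the 9 probes passed it as higher in the B52 larvae, where 1.41% of all probes did, and 0 as lower, where 0.216% did. The 5 were the ple probe, both Pu probes and Ddc probes 110 and 7197. Under the channel reading 0 of 9 passed as higher, where 0.736% of all probes did, and 0 as lower, where 0.784% did. With a log ratio of 1 in place of 0.301, 2-fold if the values are log2, 0 probes of the whole array passed in either reading.

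**Figure D2:**
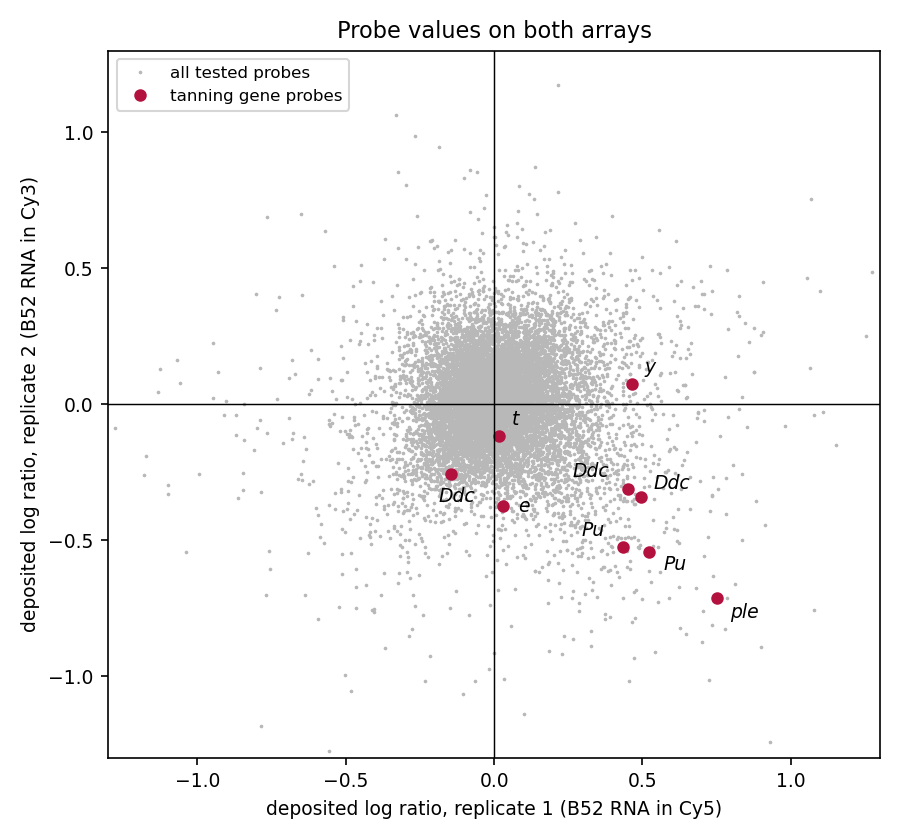
Deposited log ratios of all 12500 tested probes (grey), with replicate 1 on the horizontal and replicate 2 on the vertical axis, and the 9 tanning gene probes in red with their gene names; 12 probes lie outside the axes. The ple, Pu and most Ddc probes sit in the lower right quadrant, away from the bulk, while t lies within the bulk and y lies above the horizontal zero line.

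The order of the genes in the dye reading was ple, Pu, Ddc, e, y and t. Values of ple on both arrays lay above those of both Pu probes, and both arrays put the Pu probes above the gene mean of Ddc, 0.268 on replicate 1 and 0.304 on replicate 2, though Ddc probes 110 and 7197 overlapped with Pu on replicate 1. The array values of e spanned those of Ddc, and those of y spanned Ddc, e and t, so the order of the last 4 genes is not set beyond their spread. Ranked by the smaller of the 2 array values in the dye reading, ple was gene 5 of 10584, Pu gene 23 and Ddc gene 162. On the single arrays ple was gene 37 on replicate 1 and gene 43 on replicate 2. By the same smaller value e was gene 1607 and t gene 1917, and y, whose sign differed between the arrays in this reading, has no such rank. In the channel reading e had the lowest mean of the set and y the highest, and of these y ranked 317 from the top of all named genes.

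Spots were split into 48 equal runs of consecutive probe numbers, taken as print blocks. This layout was assumed and not read from the labels. The blocks had different median log ratios, and each block's median was removed as an alternative. The ple values in the dye reading then were 0.766 and 0.662 on replicates 1 and 2. Pu was at 0.443 and 0.58, and Ddc at 0.226 and 0.412, so these 3 genes stayed positive on both arrays. The e value on replicate 1 became -0.0155 and the t value -0.053. With block medians removed, 3 of the 6 genes had the same sign on both arrays in the dye reading, and the other 3, e, t and y, had it in the channel reading. On replicate 1 the values of e and t were smaller than their block medians, 0.0465 and 0.069.

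**Figure D3:**
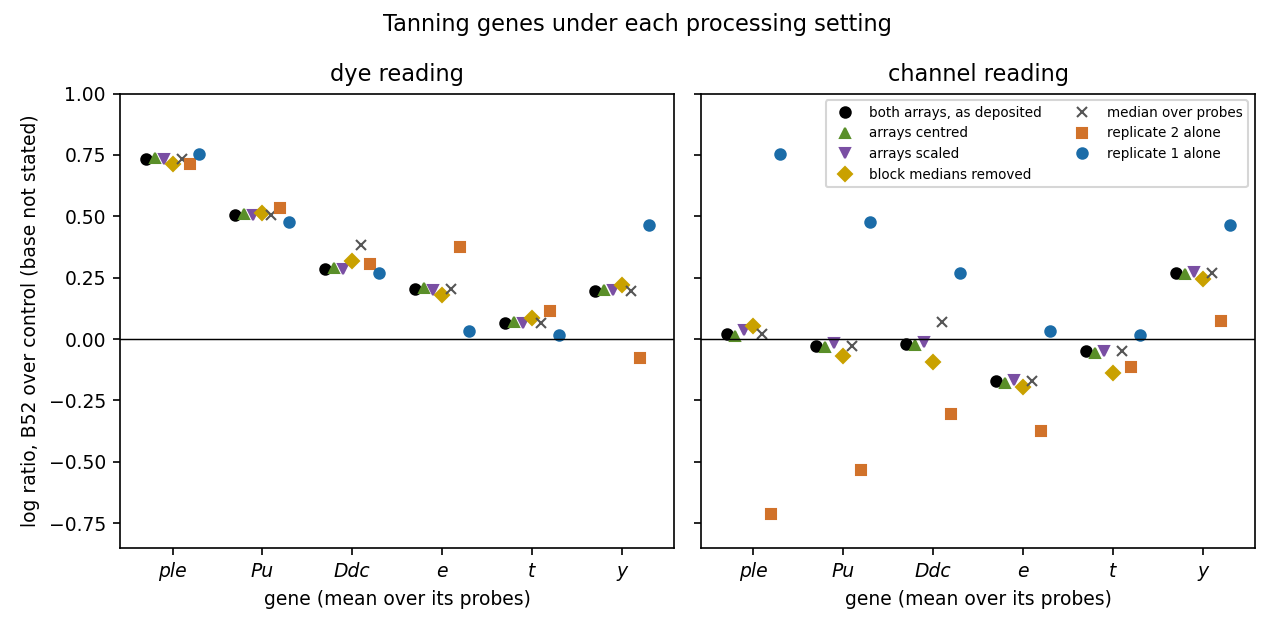
Mean log ratio of each tanning gene, B52 over control, in the dye reading (left) and the channel reading (right), under 5 settings that use both arrays and on each array alone. The ple, Pu and Ddc values stay between 0.268 and 0.752 in the dye reading under every setting drawn, and in the channel reading the single arrays lie on opposite sides of 0.

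Other genes of the pathway were taken from lists that were written with earlier results of these data known. Limma called 0 of the 112 probes of all 13 lists in either reading. Counts of sign are set beside the shares of all named genes, which were 21.9% positive and 25.6% negative on both arrays in the dye reading, and 28.1% and 24.3% for the channel reading. The size rule of 0.301 was passed by 1.41% of all probes as higher and 0.216% as lower in the dye reading. The channel reading gave 0.736% and 0.784%. In the dye reading the rule was passed as higher by 5 of 16 cuticle protein probes, 3 of 7 muscle probes and 2 of 12 probes of the yellow family and laccases. It was passed by 1 probe each of the phenoloxidase, hemocyte and salivary glue lists, the phenoloxidase and hemocyte lists sharing PPO2. No list probe passed it as lower in that reading, and by the channel reading 1 probe of the ecdysone list passed as higher, that of Eip93F. The yellow family and the laccases, which act beside y on cuticle catechols, had 12 measured genes of 17. Their median was 0.0515 ± 0.0223 (SD of the 2 array medians) in the dye reading, with both arrays positive for 5 genes and both negative for 0. The channel-reading median was -0.004, with 4 genes positive and 3 negative on both. Among them stw, the laccase that oxidises catechols in the cuticle, had a dye-reading value of 0.411 on replicate 1 and 0.43 on replicate 2. The yellow family gene yellow-d2 had 0.704 and 0.761, and yellow-e had 0.246 and 0.243. These 3 genes were named for having 1 sign on both arrays in the dye reading, and their channel-reading means were -0.0095, -0.0285 and 0.0015. The other yellow genes measured lay between -0.0585 for yellow-g2 and 0.059 for yellow-e2 in the dye reading. For yellow-f2, a dopachrome conversion enzyme of melanin synthesis, only replicate 1 had a value, 0.51. For yellow-k only replicate 2 had a value, deposited as 0.052.

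Pterin cofactor genes other than Pu had small values. Of 5 measured genes of 7, 3 were positive on both arrays in the dye reading and 0 negative, with a median of 0.118 ± 0.0078 (SD of the 2 array medians) and 0.047 by the channel reading, where 1 was positive and 1 negative. The 3 were pr, which acts after Pu in pterin synthesis, at 0.12 ± 0.083 (SD, n = 2 arrays), Sptr, a sepiapterin reductase, at 0.13 ± 0.139, and Dhpr, which regenerates the cofactor, at 0.15 ± 0.109. None of these 3 had the size of Pu on either array. Among relatives of Ddc in the decarboxylase family 3 of 5 genes were measured, with a median of -0.0975 in the dye reading, and the channel reading gave 0.066. Tdc1, a tyrosine decarboxylase, was at 0.085 ± 0.0933 and Hdc, which makes histamine, at -0.19 ± 0.222 in the dye reading. For amd, a close relative of Ddc, only replicate 1 had a value, -0.277. That was on the side of 0 opposite to Ddc probes 110 and 7197 and on the side of probe 6861. Tdc2 also had a value on replicate 1 only, -0.37.

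The list of beta-alanine supply and dopamine acylation had 11 measured genes of 13. Both dye-reading values were positive for 2 of them and negative for 3, with a median of 0.0225, and the channel reading gave 6 positive, 0 negative and a median of 0.046. The gene speck, whose enzyme acetylates dopamine and so competes with e for it, had dye-reading values of 0.291 and 0.529, with a mean of 0.41 ± 0.168 (SD, n = 2 arrays) and -0.119 ± 0.58 in the channel reading. The acetyltransferase relative AANATL5 was at -0.0815 and Nhe3, a sodium-proton exchanger, at -0.0428 in the dye reading. For Balat, a beta-alanine transporter, only replicate 1 had a value, deposited as 1.11. The same held for AANATL3, deposited as -0.039.

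Phenoloxidases, which make melanin from dopamine in wounds and blood rather than in pigmented cuticle, were in a list with 8 measured genes of 10. The median was 0.0822 ± 0.0394 (SD of the 2 array medians) in the dye reading, with 5 genes positive on both arrays and 0 negative. The channel-reading median was 0.0377, with 1 positive and 2 negative. PPO2 had dye-reading values of 0.447 and 0.519 and PPO1 had 0.585 and 0.241. Sp7, a protease of the cascade, was at 0.091 ± 0.0608 (SD, n = 2 arrays). For psh, also in the list, only replicate 2 had a value, deposited as 0.519 and so opposite in sign to PPO1 and PPO2 on that array. PPO1 and PPO2 also belong to the list of hemocyte markers, since crystal cells of the blood make them. The 9 genes of that list had medians of 0.076 and -0.036 in the dye and channel readings, and lz, a transcription factor needed for crystal cells, had dye-reading values of -0.125 and -0.296.

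Hormones and regulators of tanning had dye-reading means below those of ple and Pu, which was not so in the channel reading. The 6 measured genes of 8 for moult and tanning hormones had a median of -0.0685 ± 0.143 (SD of the 2 array medians) in the dye reading, and the channel reading gave 0.0722. The receptor of the tanning hormone bursicon, rk, had -0.136 and -0.137 in the dye reading, and the peptide genes CCAP and ETH had means of -0.149 and 0.033. The 7 measured regulators of 11 had medians of 0.089 and -0.0805 in the dye and channel readings. The epidermal factor grh, which binds upstream of Ddc, had dye-reading values of 0.257 and 0.115, vvl, a POU-domain factor, had 0.176 and 0.382, and dsx, the sex determination factor that shapes abdominal pigment, had 0.063 and 0.115. A further dsx probe had a value on replicate 1 only, -0.054, opposite in sign to the 0.063 on that array. For the ecdysone response, 12 measured genes of 14, the medians were -0.0722 and 0.0717. Of these 3 were negative on both arrays in the dye reading, ImpE3 at -0.242, ImpE2 at -0.235 and the nuclear receptor gene Hr4 at -0.084, and 2 were positive on both, the ecdysone receptor gene EcR with 0.453 and 0.047 and br with 0.082 and 0.0312. The ecdysone-induced gene Eip93F had 0.729 and -0.509, of opposite sign in that reading. For the channel reading 6 genes of the list were positive on both arrays and 1 negative.

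**Figure D4:**
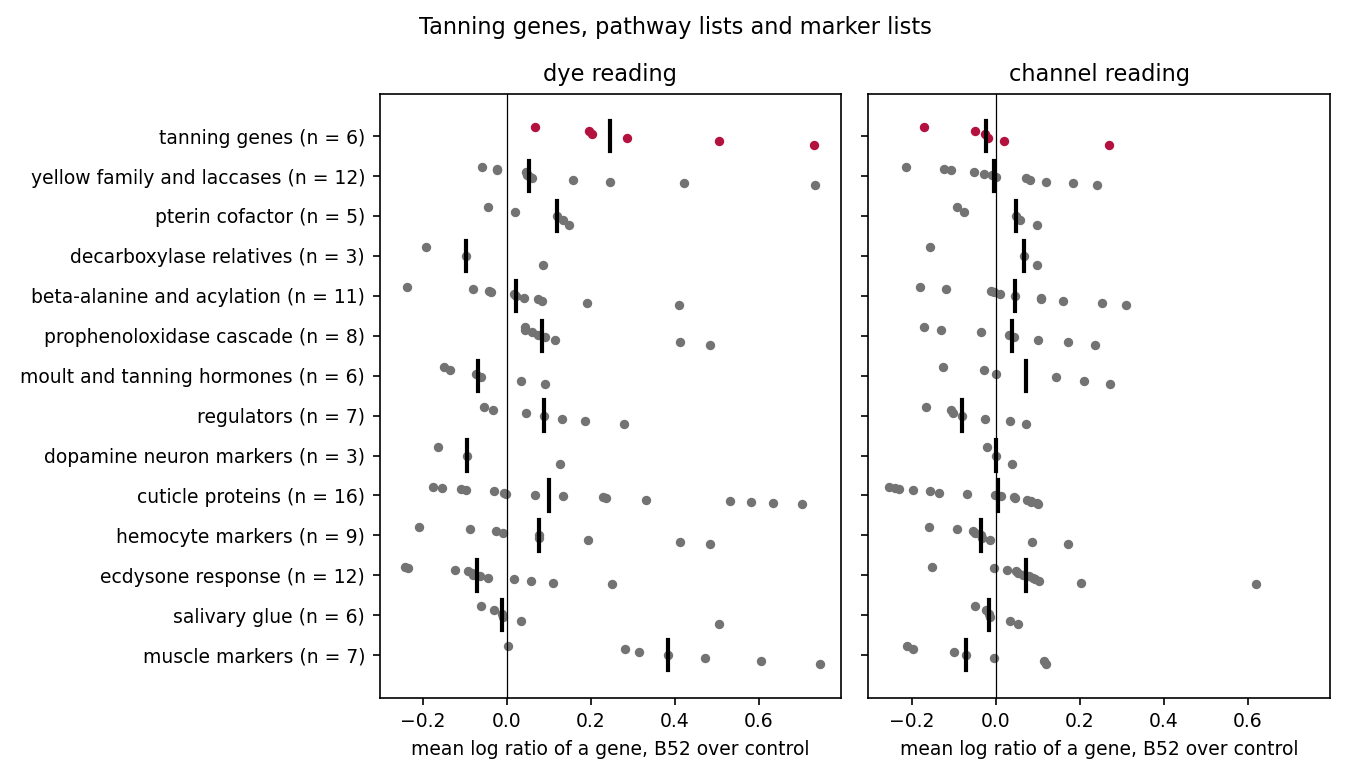
Mean log ratio of each measured gene (points) and the list median (black bar) in the dye reading (left) and the channel reading (right), with the tanning genes in red and the number of measured genes beside each list name. In the dye reading the tanning genes, with a median of 0.244, and the muscle markers, with 0.383, have the 2 highest medians, and in the channel reading both medians are just below 0.

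Muscle markers and some cuticle protein genes had high dye-reading values too, while the other marker lists had medians closer to 0. The RNA is labelled only as that of larvae, and fewer cells of a type cannot be told apart from less RNA per cell. Cuticle proteins of the epidermis, 16 measured genes of 24, had a dye-reading median of 0.1 ± 0.0233 (SD of the 2 array medians), with 8 positive on both arrays, 4 negative on both and array medians of 0.163 and 0.195. The highest means were those of Lcp9 at 0.7 ± 0.326 (SD, n = 2 arrays), Lcp65Aa at 0.63 ± 0.106, Lcp65Ac at 0.58, with array values of 0.328 and 0.835, and Ccp84Aa at 0.53 ± 0.192, and the lowest was that of Ccp84Ag at -0.175. Muscle markers, 7 measured genes of 13, had 0.383 ± 0.177 with 6 positive and 0 negative on both arrays, led by up at 0.75 ± 0.139, which encodes troponin T, Tm2 at 0.6 ± 0.163 and Mf at 0.47 ± 0.102. Channel-reading medians were 0.0045 for cuticle, with 1 gene positive and 3 negative on both arrays, and -0.072 for muscle, with 1 positive and 0 negative. On replicate 2 only, Ccp84Ab was deposited as 0.291, Lcp65Ae as 0.008 and the muscle marker TpnC41C as 0.047, each negative in the dye reading. The glue protein genes of the salivary gland, all 6 measured, had medians of -0.0112 and -0.0155, with Sgs1 at 0.51 ± 0.02, Sgs4 at -0.031 and Sgs8 at -0.062 in the dye reading. The list for dopamine neurons includes receptor genes, so it does not stand for these neurons alone. Of its 6 genes 3 were measured, with medians of -0.0945 and 0.0015 in the dye and channel readings. Of these the vesicular monoamine transporter gene Vmat had -0.184 and -0.143 in the dye reading, DopEcR had -0.093 and -0.096, and the receptor gene Dop2R had 0.165 and 0.086. The Vmat probe with values on both arrays was thus on the side of 0 opposite to ple and the gene mean of Ddc in that reading. Ddc probe 6861, at -0.146 on replicate 1, lay on its side there. Further Vmat probes were deposited as -0.078 on replicate 1 only and -0.04 on replicate 2 only, the latter on the side of ple. For DAT, a transporter gene of the list, only replicate 2 had a value, deposited as 0.252 and so opposite in sign to ple. The part of any of these tissues in the values of the tanning genes was not tested.

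The genes nearest to ple in their pair of array values were Pglym78, yellow-d2 and Ank, at distances of 0.033, 0.0693 and 0.0801 over the 2 arrays, and this nearness does not depend on the reading. Pglym78, a phosphoglycerate mutase of glycolysis, had dye-reading values of 0.785 and 0.711, and Ank, an ankyrin, had 0.739 and 0.632. With 2 arrays such nearness says only that the values are alike. Chromosomal neighbours, taken as the first measured gene on each side in the RefSeq order of Release 6, had dye-reading means below those of ple and Pu. Only 7 of these neighbours were adjacent genes, and the furthest lay 5 genes away. Of 12 such neighbours 1 was positive on both arrays in the dye reading and 2 were negative on both, with a median of -0.008. The channel-reading means of the neighbours reached 0.314 for ac and -0.307 for CG32816, which lay 2 and 3 genes away from y. Both were further from 0 than ple or Pu in that reading. The positive one was CG8519, beside ple, with 0.088 and 0.34. Beside Pu lay Xpd at -0.0355 and CG4286 at -0.0835, and beside Ddc lay CG10561 at 0.06 and Phb1 at -0.002. The lowest dye-reading mean of a neighbour was -0.367, for ac.

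The targeted gene, B52, had 5 probes with a mean of -0.0892 ± 0.0662 (SD, n = 2 arrays) in the dye reading, and the channel reading gave -0.0468 ± 0.126. Its mean was thus not above 0 in either reading, although the B52 larvae carried a B52 fusion. In the dye reading it was negative on both arrays, at -0.136 and -0.0424. Its probes disagreed, with dye-reading means from -0.409 for probe 13309 to 0.101 for probe 832, and channel-reading means from -0.203 for probe 832 to 0.192 for probe 13309. The labels of the RNAs could not be checked from B52. Over all probes 47.9% had opposite deposited signs on the 2 arrays, and the values of the 2 arrays had a correlation of 0.0095 across probes, which are not independent replicates. Of the 9 tanning gene probes, 7 had opposite deposited signs. In the dye reading the central 95% of all probe means lay between -0.236 and 0.336. That of the 716 spots treated as controls and measured on both arrays lay between -0.306 and 0.454. The means of the ple probe and of both Pu probes lay above the latter range, and those of Ddc probes 110 and 7197, at 0.42 and 0.38, lay inside it. In the channel reading the central 95% of all probe means lay between -0.268 and 0.292, and the means of all 9 tanning gene probes lay inside it. Since the genes were chosen with these log ratios known, nothing is read from their place in these ranges.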

How the data were processed

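For every spot of an array the authors deposited a single log ratio. How it was made (image analysis, normalisation, centring, direction, base) is not given in the sources used here. Each array had 15744 spots. On replicate 1, 5 spots held a missing code. Spots were also split into 24 sub-grids, assumed to be equal runs of consecutive probe numbers. The 960 spots at 40 positions unnamed in all 24 sub-grids were treated as controls and not tested. The platform annotation supplied gene symbols: 13147 probes had 1 symbol, 99 several and 2498 none. Symbols were updated through a RefSeq table of Release 6 by gene ID. That table gave gene order only.

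Probes of a gene were averaged on each array. Limma 3.58.1 in R 4.3.3 tested each probe's mean against 0 (lmFit, eBayes, Benjamini-Hochberg adjustment). Other values were computed with Python 3.11.15, numpy 2.4.6 and pandas 2.3.3. Each ± gives the SD between the 2 arrays. The p-values measure only the spread between these arrays, which may be technical. Alternatives were centring, scaling, print-block medians, median over probes, each array alone, the size and the threshold.

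The members and lists were chosen with earlier results of these data known. All members were named, then up to 3 genes per list with the largest smaller value on the 2 arrays among genes of 1 sign in the dye reading, B52, and the 3 genes nearest to ple. Genes and probes of Vmat and dsx with a value on 1 array, list extremes, br, Eip93F, Lcp65Ac and chromosomal neighbours were added after the values were seen.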

Additional observations from a re-analysis of the deposited data

How the results depend on the processing

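The dye-reading median of the tanning genes, 0.244, was 0.249 with arrays centred and 0.243 with arrays scaled. It was 0.27 with print-block medians removed, 0.293 with the median over the probes of a gene, and 0.339 to 0.366 on the single arrays. The channel-reading median, -0.0226, lay between -0.0809 with print-block medians removed and -0.0032 with the median over probes, and between -0.339 and 0.366 on the single arrays. The count of genes of 1 sign across the arrays, 5 by the dye and 1 by the channel reading, was 3 in each with print-block medians removed, and cannot be formed on a single array. The size rule, passed by 203 probes by the dye and 190 by the channel reading, was passed by 0 at a log ratio of 1 and by 1123 to 1292 on the single arrays. Limma called 0 probes in both readings under each alternative run, also at an adjusted p of 0.1. It was not run on a single array, which leaves no degrees of freedom. For single genes and lists, alternatives that kept both arrays moved 142 values by no more than the SD between arrays and 10 by more. In the channel reading that SD is large for genes with opposite deposited signs, 1.03 for ple, so a move could hardly exceed it. The dye-reading mean of Ddc, 0.286, moved by more than its SD, to 0.319 with print-block medians removed and to 0.383 with the median over probes. Each log ratio sets B52 against control within 1 array and so already pairs the groups, and no further block was fitted. Signal over background could not be judged without intensities.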
